A study of Mus musculus with 6 samples.

Results

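The heat shock protein genes described here are Hspa1a, Hspa1b, Hspa5, Hspa8, Hsp90aa1, Hsp90ab1, Hsph1, Dnajb1, Hspd1 and Hspb1. These 10 genes were chosen by symbol from the 55421 genes of the count table, not by their values but with earlier results of these data known. All 10 passed the filter on low counts that left 14469 genes for testing. RNA was sequenced from tumor-associated macrophages (TAMs) collected on day 15 after implantation of MC17-51 ("M17") fibrosarcoma cells, in 3 libraries from Pdcd1f/f mice and 3 from Pdcd1f/fLysMcre mice. The libraries of these mice are called control and Cre libraries below. Both groups carry the floxed Pdcd1 allele, which encodes the checkpoint receptor PD-1, on a C57BL/6 background and were 8 to 12 weeks old at implantation. Only the second group carries Cre, driven by the lysozyme M (Lyz2) promoter, which is active in macrophages, monocytes and neutrophils alike. The tumors were digested with collagenase I and the live cells sorted from them were CD45+, CD11b+, F4/80+ and Ly6G−, so every library passed through enzymatic dissociation and a cell sorter. The comparison asked whether transcripts that respond to protein damage or to tissue dissociation differed between the genotypes.

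Heat shock proteins are molecular chaperones, which bind unfolded proteins and use ATP or partner proteins to help them fold or to keep them from aggregating. Under heat, oxidative stress or tissue handling the transcription factor HSF1 is released from chaperones, binds heat shock elements and induces genes such as Hspa1a, Hspa1b, Dnajb1 and Hsph1. Other members, such as Hspa8 and Hsp90ab1, are made in unstressed cells at high levels, while Hspa5 answers to unfolded protein in the endoplasmic reticulum and Hspd1 serves the mitochondrion. In macrophages these chaperones support secretion, antigen handling and the stability of signaling kinases, and their inducible members are often read as marks of stress during cell isolation.

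Promoter sequences are shown for the elements through which these stress signals are known to act; a match of letters is a description, not a bound site. They are from RefSeq on GRCm38.p6 and were searched on both strands, over the 250 bases before each annotated start, for an inverted pair of heat shock units (GAANNTTC), for the everted pair (TTCNNGAA), for a run of 3 units (GAANNTTCNNGAA, which overlaps both pairs) and for the endoplasmic reticulum stress response element (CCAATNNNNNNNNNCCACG). Of 32851 mouse promoters of the same length, 6.69% hold the inverted pair, 7.17% the everted pair, 0.466% the run of 3 units and 0.113% the endoplasmic reticulum element. The windows of Hspa1a (chr17:34972157-34972406, minus strand) and Hspa1b (chr17:34959239-34959488, minus strand) are shown because this gene pair has almost the same promoter, 247 of 250 bases (98.8%) being identical, with the inverted pair in capitals.
Hspa1a: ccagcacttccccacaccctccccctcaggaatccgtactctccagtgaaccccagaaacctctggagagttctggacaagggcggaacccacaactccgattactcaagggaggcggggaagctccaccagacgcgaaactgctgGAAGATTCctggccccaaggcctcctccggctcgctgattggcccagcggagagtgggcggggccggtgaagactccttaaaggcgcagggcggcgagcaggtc
Hspa1b: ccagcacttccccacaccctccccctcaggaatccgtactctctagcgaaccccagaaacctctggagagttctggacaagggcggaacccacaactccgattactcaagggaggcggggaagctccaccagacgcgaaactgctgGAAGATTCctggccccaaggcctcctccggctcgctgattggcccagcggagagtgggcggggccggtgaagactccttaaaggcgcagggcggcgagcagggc
Counted from 1 at the 5′ end of the window, and with the base of Hspa1a first, the differences are C44T, T47C and T249G. In both genes the capitals lie 104 to 97 bases before the start.

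Shorter runs of 30 bases are given for the other matches, with the matched letters in capitals. Hspa5 holds the endoplasmic reticulum element 65 to 47 bases before its start, and Hsph1 holds the everted pair 33 to 26 bases before its first start. Hspb1 holds 2 inverted pairs, of which the nearer is shown. A pair of overlapping runs of 3 units, TTCTAGAACCTTC and GAACCTTCCGGAA, lies 89 to 72 bases before the start of Hspe1, the gene of the mitochondrial co-chaperonin, and so between it and the second RefSeq start of Hspd1, the genes being transcribed away from each other. Both runs together are in capitals, printed in the direction of Hspe1, and the window of the first Hspd1 start holds no match.
Hspa5 (chr2:34772019-34772048, plus strand): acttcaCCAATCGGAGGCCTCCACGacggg
Hsph1 (chr5:149636351-149636380, minus strand): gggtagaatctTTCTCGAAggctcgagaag
Hspb1 (chr5:135887811-135887840, plus strand): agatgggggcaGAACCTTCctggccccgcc
Hspe1 (chr1:55088053-55088082, plus strand): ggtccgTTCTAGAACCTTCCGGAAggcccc
None of these letters was found in the Dnajb1 windows. Hspa8, Hsp90aa1 and Hsp90ab1 were not matched in the promoter table.

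Total counts ranged from 41833823 to 51417209 per library. Pdcd1 itself was read 10, 12 and 15 times in the control and 7, 16 and 11 times in the Cre libraries, too few to check the deletion. Lyz2, which carries the Cre insertion, had a log2 fold change of −8.99 and its paralog Lyz1 one of 4.54 (edgeR, adjusted p = 2.4e-12 and 8.8e-09), which separates the libraries as labelled. All 7 macrophage markers checked were measured at high counts, and Adgre1 (F4/80), Csf1r and Mertk were past the threshold and lower in Pdcd1f/fLysMcre TAMs. Summed normalized counts of these 7 were 212605 to 226893 in the control and 191083 to 193710.48 in the Cre libraries, those of 8 neutrophil markers 4220 to 4529 and 3817 to 3947, those of 8 fibrosarcoma and stromal markers 3117 to 3374 and 2982 to 3273, and those of 5 endothelial markers 1869 to 1988 and 1519 to 1647. Among the neutrophil markers Csf3r, the receptor for G-CSF, was read 1582 to 2482 times per library and was past the threshold and lower (log2 fold change −0.51, adjusted p = 0.00686 from edgeR), and S100a8 was read 994 to 1632 times (0.23, adjusted p = 0.220 from edgeR). Of the 5 neutrophil markers tested, 3 had a log2 fold change above 0 and 2 below, with a median of 0.03, so the lower sum is not shared by the list. Pecam1 of the endothelial list (−0.62, adjusted p = 0.00340) and Col1a2 of the stromal list (−1.0, adjusted p = 0.0121, both from edgeR) were also past the threshold and lower, the latter at only 53 to 139 counts. The rest of these lists did not move with them. Of 3 endothelial markers tested, 1 lay above 0 and 2 below, with a median log2 fold change of −0.0090. Of 7 stromal markers tested, 3 lay above 0 and 4 below, with a median of −0.07. The part of these cells in the values below was not tested. Of the markers of other cells, 3 of 8 neutrophil genes, 5 of 8 T and NK cell genes and all 5 erythroid genes had at most 20 counts in every library, and Ly6g and Pax5 were at or near 0. Xist and 4 Y-linked transcripts separated the genotypes in all libraries, so a difference in sex makeup and the genotype cannot be told apart. Pdcd1f/f replicate 1 and Pdcd1f/fLysMcre replicate 2 stood apart on the second principal component (19.7% of the variance of the 500 most variable genes), and in both of them GC-poor genes were read relatively more (Spearman rho of −0.58 and −0.49 across genes between GC content and the deviation from the genotype's mean). Since deviations within a genotype balance, the other libraries leaned the opposite way, rho being 0.35 and 0.51 for the remaining control libraries, 0.12 and 0.50 for the remaining Cre libraries. The sources used here do not say whether a library came from 1 mouse or several, so p-values measure only the spread between these libraries, and in bulk RNA a change in the mix of cells and a change of RNA per cell cannot be told apart.

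Levels of different genes were compared as normalized counts per kilobase of annotated exon. Hspa5, the endoplasmic reticulum HSP70, and Hsp90ab1, the constitutive cytosolic HSP90, stood at the top, with 33589 ± 2393 and 36287 ± 505 normalized counts per kilobase in the control libraries and 41914 ± 3553 and 37997 ± 602 in the Cre libraries (SD, n = 3 each). The libraries of these leading genes overlapped in at least 1 genotype, so their order is not resolved. Hspa8 followed with 24684 ± 677 and 27821 ± 683 (SD, n = 3 each), apart from its neighbours on both sides. Hsp90aa1 (8201 ± 686 and 10157 ± 1078) and Hspd1 (8015 ± 858 and 9924 ± 937) overlapped with each other in both genotypes (SD, n = 3 each). Hspa1a (3622 ± 134 and 3407 ± 80.9) lay above Hspa1b (3335 ± 41.9 and 3357 ± 219) in the control libraries and overlapped with it in the Cre libraries (SD, n = 3 each). Dnajb1, Hsph1 and Hspb1 closed the order without overlap, the last with only 114 ± 27.3 and 77.8 ± 21.5 normalized counts per kilobase (SD, n = 3 each). The genes known mainly for their induction by stress (Hspa1a, Hspa1b, Dnajb1, Hsph1 and Hspb1) lay below the other 5 in both genotypes. Together the 10 genes took 0.987%, 0.940% and 0.912% of all counts in the control libraries against 1.04%, 1.13% and 1.05% in the Cre libraries, in the order of the replicates.

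**Figure D1:**
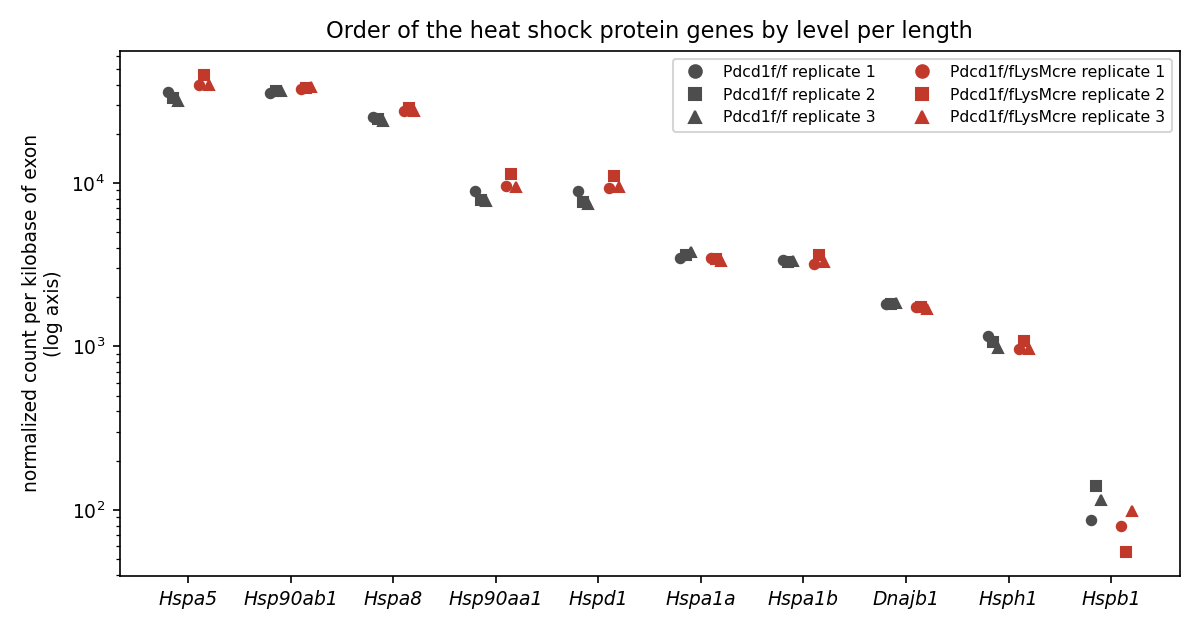
Normalized count per kilobase of exon (log axis) of each of the 10 genes in the 6 libraries, ordered by mean level. Grey symbols are Pdcd1f/f and red symbols Pdcd1f/fLysMcre libraries, and the symbol's shape gives the replicate; Hspa5 and Hsp90ab1 lead and Hspb1 is lowest in both genotypes.

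Over the 14469 genes tested with edgeR's quasi-likelihood test and Benjamini-Hochberg adjustment, 5.43% were past the adjusted p threshold of 0.05, 2.42% being higher and 3.01% lower in Pdcd1f/fLysMcre TAMs. Of the 10 heat shock protein genes, 1 was past it, Hspa5, which was higher. Every Cre library lay above every control library for 5 of the 10 (Hspa5, Hspa8, Hsp90aa1, Hsp90ab1 and Hspd1), against 14.1% of all genes tested. Every one lay below for 2 of the 10 (Hspa1a and Dnajb1), against 13.1%, so 7 of the 10 were without overlap in either direction, against 27.2%. The median log2 fold change of the 10 genes was 0.04, beside −0.0026 for all genes tested, and it joins members on both sides of 0.

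**Figure D2:**
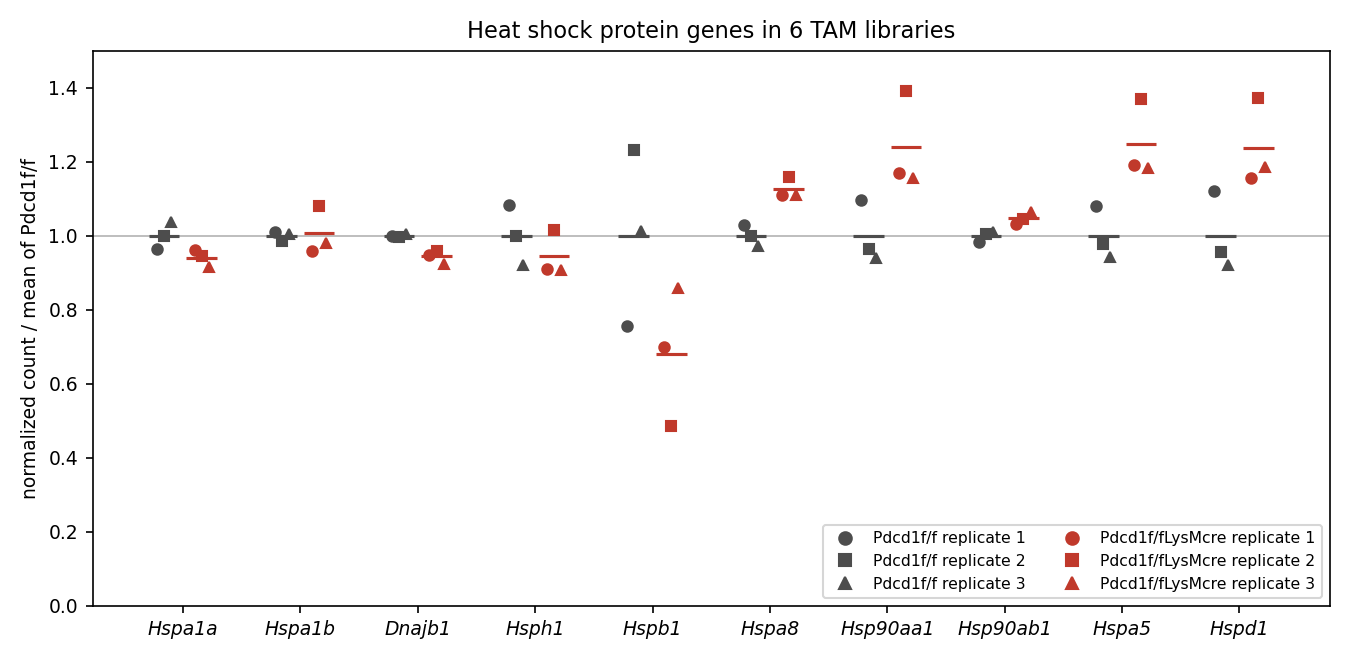
Normalized count of each gene in each of the 6 libraries, divided by the mean of the 3 Pdcd1f/f libraries; the bars are genotype means. Hspa8, Hsp90aa1, Hsp90ab1, Hspa5 and Hspd1 lie higher in every Cre library, while Hspa1b, Hsph1 and Hspb1 overlap between the genotypes.

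Among the stress-inducible genes, Hspa1a and Hspa1b (the inducible cytosolic HSP70s, which bind exposed hydrophobic stretches of unfolded proteins) did not pass the test. Hspa1a (chromosome 17, 34969190 to 34972156 of GRCm38, as are the coordinates that follow) had 10350.1, 10746 and 11143 normalized counts in control replicates 1, 2 and 3 against 10323, 10152 and 9849 in Cre replicates 1, 2 and 3, the order used throughout. The genotypes did not overlap, but the lowest control and the highest Cre library were nearly equal. Its log2 fold change was −0.09 (SE 0.06, 95% interval −0.22 to 0.04, adjusted p = 0.400 from edgeR), so that the interval runs from 14.0% lower to 3.16% higher. Hspa1b (chromosome 17, 34956436 to 34959238) had 9431, 9214 and 9400.4 normalized counts in the control libraries against 8958, 10109 and 9165 in the Cre libraries. These overlapped, with a log2 fold change of 0.01 (SE 0.06, 95% interval −0.13 to 0.15, adjusted p = 0.930 from edgeR). Of the 42-base windows of the Hspa1a transcript, 60.8% also occur in Hspa1b, so short reads could be split between the pair. Their summed normalized counts were 19781, 19960.1 and 20543 in the control and 19281, 20261 and 19014 in the Cre libraries, and the sum had a log2 fold change of −0.04 (adjusted p = 0.708 from edgeR).

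Dnajb1, on chromosome 8 from 83608193 to 83612653, encodes the J-domain protein that delivers substrates to HSP70 and stimulates its ATPase. It had 5847, 5824 and 5873 normalized counts in the control libraries, the tightest of all members, and 5550.5, 5609 and 5407 in the Cre libraries. All the latter lay lower, by a log2 fold change of −0.08 that did not pass the test (SE 0.06, 95% interval −0.21 to 0.04, adjusted p = 0.410 from edgeR). Hsph1 (chromosome 5, 149614287 to 149636376), an HSP110 that exchanges the nucleotide of HSP70, had 8374, 7726 and 7120.2 normalized counts in the control libraries. In the Pdcd1f/fLysMcre libraries it had 7037, 7861 and 7019, which overlapped with the former, and the log2 fold change was −0.08 (SE 0.08, 95% interval −0.25 to 0.09, adjusted p = 0.549 from edgeR). Hspb1 (chromosome 5, 135887919 to 135889563), the small heat shock protein that holds unfolded proteins without ATP, was scarce. Its normalized counts were 89.0, 145 and 119 in the control libraries against 82.3, 57.1 and 101 in the Cre libraries. The groups overlapped and the log2 fold change of −0.55 was poorly resolved (SE 0.25, 95% interval −1.09 to −0.0037, adjusted p = 0.203 from edgeR). It was past the threshold in 1 of the 16 alternative fits, without Pdcd1f/f replicate 1 (log2 fold change −0.73, adjusted p = 0.0419 from edgeR), a fit in which 21.6% of all genes were past it.

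Hspa8 and the cytosolic HSP90s, which unstressed cells also make at high levels, had higher counts in every Pdcd1f/fLysMcre library, though none of the 3 passed the test. Hspa8 (chromosome 9, 40800984 to 40810087), the cognate HSP70 that also uncoats clathrin vesicles, had 109132, 106054 and 103314 normalized counts in the control libraries. It had 117977, 123052 and 117948 in the Cre libraries, clear of the former. The log2 fold change was 0.17, or 12.9% (SE 0.06, 95% interval 0.05 to 0.30, adjusted p = 0.101 from edgeR). Hsp90aa1 (chromosome 12, 110690605 to 110702728), the more inducible of the cytosolic HSP90s, which mature kinases and steroid receptors, had 35316, 31096 and 30301 normalized counts in the control libraries. In the Pdcd1f/fLysMcre libraries it had 37715, 44813 and 37253, all higher, with a log2 fold change of 0.31, or 24.0% (SE 0.09, 95% interval 0.12 to 0.50, adjusted p = 0.0670 from edgeR). Hsp90ab1 (chromosome 17, 45567775 to 45573271) had 107094, 109474 and 109911 against 112192, 113873 and 115799 normalized counts. These were also apart, by a log2 fold change of only 0.07 (SE 0.06, 95% interval −0.05 to 0.19, adjusted p = 0.477 from edgeR). The ratio of Hsp90aa1 to Hsp90ab1 counts was 0.330, 0.284 and 0.276 in the control libraries against 0.336, 0.394 and 0.322 in the Cre libraries, so the genotypes overlapped in it.

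Hspa5 (chromosome 2, 34771970 to 34777547), also called BiP or GRP78, holds proteins entering the secretory pathway and restrains the sensors of the unfolded protein response. It had 153342, 139000.1 and 133807 normalized counts in the control libraries against 169152, 194589 and 168019 in the Cre libraries. All of the latter were higher, and Hspa5 rose by 0.32 on the log2 scale, or 25.0% (SE 0.08, 95% interval 0.15 to 0.49, adjusted p = 0.0405 from edgeR). This call was close to the threshold. Of 16 alternative fits 11 made it, but of the 6 with a library left out only 1 did, the fit without Pdcd1f/f replicate 1 (adjusted p = 0.00474 from edgeR). In the other 5 fits its adjusted p ranged up to 0.184 while the log2 fold change stayed between 0.25 and 0.35.

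Hspd1 (chromosome 1, 55077835 to 55088243) encodes the mitochondrial HSP60 ring, in which imported proteins fold under a lid made by the product of its neighbour Hspe1. Hspd1 had 23759, 20242 and 19524 normalized counts in the control libraries against 24488, 29057 and 25116 in the Cre libraries. The lowest of the latter lay just above the highest of the former, and the log2 fold change was 0.31, or 24.0% (SE 0.09, 95% interval 0.11 to 0.51, adjusted p = 0.0722 from edgeR). Hspe1, with which Hspd1 shares the overlapping runs of heat shock units printed above, had 6145, 5131 and 4819 against 5065, 5867 and 4630.02 normalized counts. These overlapped (log2 fold change −0.05, SE 0.11, adjusted p = 0.825 from edgeR). The ratio of Hspd1 to Hspe1 counts was 3.87, 3.95 and 4.05 in the control libraries against 4.84, 4.95 and 5.42 in the Cre libraries, so it was higher in every Cre library. It was given no test, and a bias that depends on GC content or length does not cancel in it. With offsets for GC content and length, the log2 fold changes were 0.31 for Hspd1 and −0.07 for Hspe1. Both genes overlap on opposite strands in the annotation, as do Hspa1a and Gm20481 (4.47 to 16.7 normalized counts), and reads there cannot be told apart where strand was not used in counting.

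The inducible cytosolic HSP70s were also set against the cognate one. Summed counts of Hspa1a and Hspa1b were 18.1%, 18.8% and 19.9% of the Hspa8 count in the control libraries against 16.3%, 16.5% and 16.1% in the Cre libraries. This share was lower in every Cre library, and it varied least there (18.9% ± 0.886 and 16.3% ± 0.175, SD, n = 3 each). A single scaling factor per library cancels in this share, but a bias that depends on GC content does not. The longest transcripts of Hspa1a and Hspa1b are richer in GC (58.9% and 58.1%) than that of Hspa8 (45.9%). With offsets for GC content and length, the log2 fold changes were 0.08 for Hspa1a, 0.17 for Hspa1b and 0.14 for Hspa8, against −0.09, 0.01 and 0.17 without them, so that with the offsets the value of Hspa8 lay between those of the pair. The share was given no test, because these genes were set side by side after their values were seen.

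Library composition moved with several of these values. In 6 of the 10 genes (Hspa1b, Hspa5, Hspa8, Hsp90aa1, Hsph1 and Hspd1) the highest Pdcd1f/f library was replicate 1 and the highest Pdcd1f/fLysMcre library was replicate 2, the pair that stands apart, and Hspb1 was lowest in both. The longest transcripts of Hspa5, Hspa8, Hsp90aa1, Hsph1 and Hspd1 have a GC content of 43.7% to 47.3%, below the median of 49.2% over the genes tested, while that of Hspb1 is 61.7%. Hspa1a and Hspa1b, at 58.9% and 58.1%, deviated from the mean of their genotype by −0.05 and 0.01 on the log2 scale in Pdcd1f/f replicate 1 and by 0.0066 and 0.11 in Pdcd1f/fLysMcre replicate 2.

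**Figure D3:**
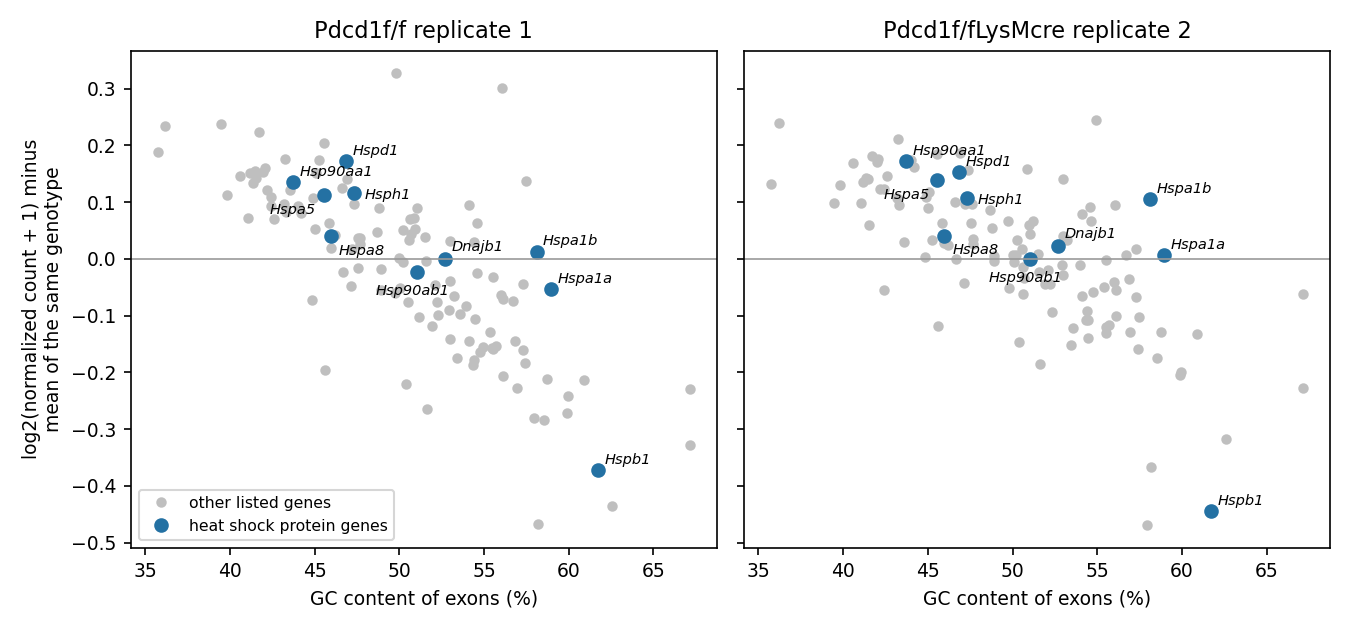
Deviation of log2(normalized count + 1) from the mean of the same genotype against GC content (%), in Pdcd1f/f replicate 1 (left) and Pdcd1f/fLysMcre replicate 2 (right). GC content is that of the longest transcript of each gene, labelled as exons on the axis. Blue points are the 10 heat shock protein genes and grey points the other listed genes tested; GC-poor members lie above 0 and Hspb1 far below it in both libraries.

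With GC and length offsets, under which 18.9% of all genes were past the threshold (11.3% higher), 5 of the 10 genes were past it and all were higher. Their log2 fold changes were 0.28 for Hspa5 (adjusted p = 2.2e-04), 0.25 for Hsp90aa1 (9.0e-04), 0.31 for Hspd1 (0.00289), 0.14 for Hspa8 (0.0117) and 0.12 for Hsp90ab1 (0.0268, all from edgeR). The offsets also moved the split of all calls, from 350 higher and 436 lower to 1642 higher and 1099 lower. Without Pdcd1f/f replicate 1 and Pdcd1f/fLysMcre replicate 2, with 26.2% of genes past the threshold (12.5% higher), Hspa5, Hsp90aa1, Hspd1 and Hspa8 were past it, with adjusted p of 6.4e-05, 1.6e-04, 9.9e-05 and 0.00585 (edgeR). DESeq2, with 11.0% past the threshold (5.22% higher), called the same 4 genes (adjusted p from 0.00485 for Hspa5 to 0.0477 for Hspa8). Hspa1a, Hspa1b, Dnajb1 and Hsph1 were past it in none of the 16 alternative fits. The sign of Hspa1a turned with the offsets (log2 fold change 0.08, adjusted p = 0.551 from edgeR), and that of Hspa1b turned in 3 fits. Without both libraries that stand apart, Hspa1a instead lay further below 0 (log2 fold change −0.12, 95% interval −0.22 to −0.02, adjusted p = 0.0708 from edgeR).

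**Figure D4:**
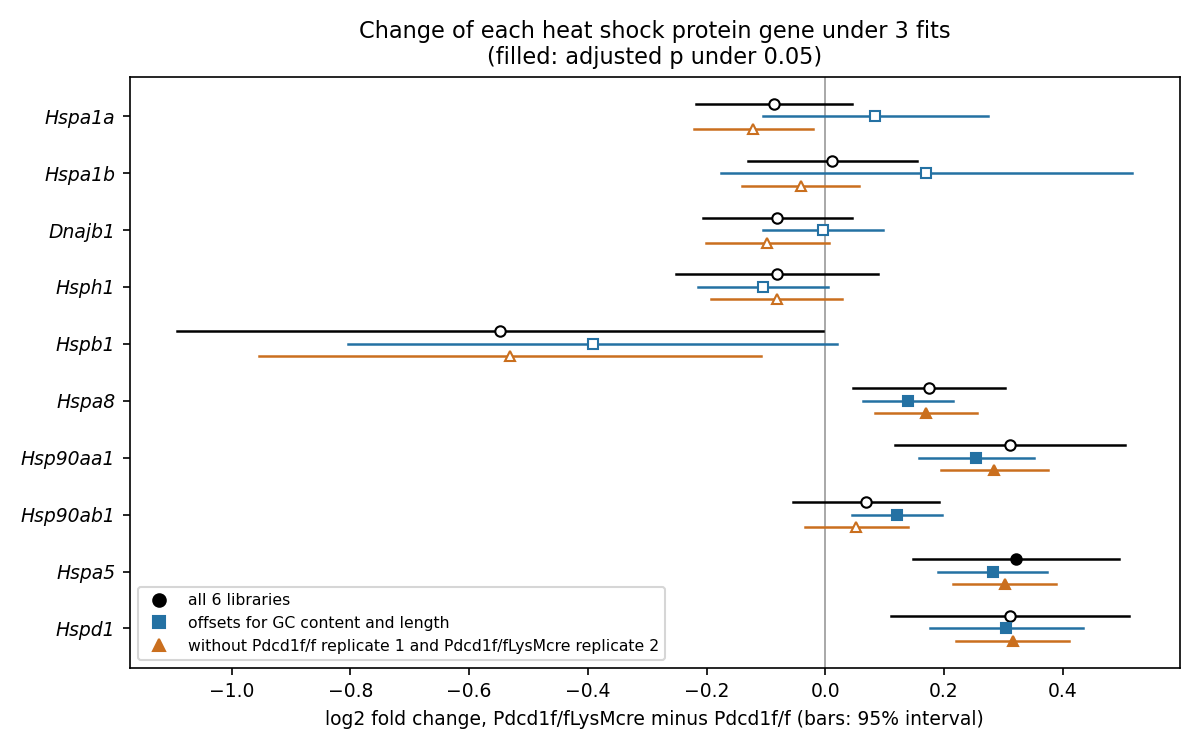
Log2 fold change of each gene, Pdcd1f/fLysMcre minus Pdcd1f/f, with its 95% interval, in the fit of all 6 libraries (black), with offsets for GC content and length (blue) and without the pair of libraries that stand apart (orange). Filled symbols are past an adjusted p of 0.05 in edgeR; the intervals of Hspa8, Hsp90aa1, Hspa5 and Hspd1 lie above 0 in all 3 fits, and those of Hspa1b, Dnajb1 and Hsph1 cross 0 in all 3.

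Several members share sequence with pseudogenes, and how reads with several matches were counted is not given in the sources used here. For Hspa8, Hsp90aa1, Hspd1 and Hspb1, 48.5% to 60.2% of the 42-base windows of the longest transcript occur in another gene. The pseudogene that shares most with each had few normalized counts, 240 to 323 for Gm15459 (Hspa8), 61.3 to 181 for Gm12346 (Hsp90aa1), 51.5 to 133 for Hspd1-ps3 (Hspd1) and at most 1.10 for Hsp25-ps1 (Hspb1). No window of Hspa5 or Hsph1 occurs in another gene. If reads with several matches were left out, genes that share sequence could be read too low. The order of levels given above therefore holds for these counts only.

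The wider chaperone network was read from 8 further lists with 93 genes, of which 88 were tested and 4 were past the threshold (edgeR), against 5.43% of all genes tested. In the list of heat shock factors, Hsbp1, whose product binds the HSF1 trimer, had 4886 ± 108 normalized counts in the control and 3826 ± 89.5 in the Cre libraries (SD, n = 3 each) and fell by 0.35 on the log2 scale (SE 0.06, edgeR adjusted p = 0.00759). Every Cre library was lower. The call was lost in 2 of the 6 leave-one-out fits, without Pdcd1f/f replicate 2 (adjusted p = 0.0541) and without Pdcd1f/fLysMcre replicate 1 (adjusted p = 0.0640, both from edgeR). Hsf1, the master regulator itself, had 1526 ± 159 and 1376 ± 149 normalized counts (log2 fold change −0.15, adjusted p = 0.411), and Hsf2 1508 ± 229 and 1872 ± 307 (SD, n = 3 each; log2 fold change 0.31, adjusted p = 0.177, both from edgeR), with overlapping libraries.

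Of 8 other HSP70 and HSP110 genes tested, 1 was past the threshold, and their median log2 fold change was 0.08. Hspa9, the mitochondrial HSP70 that pulls proteins through the inner membrane and passes some on to HSP60, had 28240.3, 27144 and 25817 normalized counts in the control libraries. In the Pdcd1f/fLysMcre libraries it had 32072, 34636 and 32829, well clear of them, and it rose by 0.30 on the log2 scale (SE 0.06, adjusted p = 0.0232 from edgeR). Like that of Hspa5, this call was kept by 1 of the 6 leave-one-out fits (without Pdcd1f/f replicate 1). Hspa4, an HSP110 relative of Hsph1, also lay apart (log2 fold change 0.27, adjusted p = 0.0613 from edgeR).

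Of the 14 other HSP90 genes and co-chaperones, Fkbp5, an immunophilin that binds HSP90 and dampens the glucocorticoid receptor, was past the threshold. It had 6580 ± 12.5 normalized counts in the control and 3246 ± 82.9 in the Cre libraries (SD, n = 3 each) and fell by 1.02 on the log2 scale (SE 0.06, edgeR adjusted p = 8.4e-06). All 16 alternative fits called it. The median of the list was 0.04. Among the 5 other small heat shock protein genes tested, of 9 listed, Cryab (alpha-B crystallin) had 114 ± 19.4 normalized counts in the control and 60.1 ± 5.09 in the Cre libraries (SD, n = 3 each). It fell by 0.92 on the log2 scale (SE 0.19, edgeR adjusted p = 0.0200), a call kept in 3 of the 6 leave-one-out fits. Its product forms mixed oligomers with that of Hspb1.

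In 4 lists no gene was past the threshold in edgeR on all 6 libraries or in limma, though other edgeR fits called some. The 18 other J-domain genes had 14 log2 fold changes above 0 and a median of 0.14, with 8 genes at an unadjusted p under 0.05. Every Cre library lay above every control library for 8 of the 18 and below for 1, against 14.1% and 13.1% of all genes tested. Past the threshold were 2 in DESeq2, 8 with the offsets and 8 without both libraries that stand apart. The 9 chaperonin subunits, which are Hspe1 and the CCT ring that folds actin and tubulin, had 8 above 0 and a median of 0.16, with 4 at an unadjusted p under 0.05. In 7 of these 9 every Cre library lay above every control library, against 14.1% of all genes tested. Past the threshold were 3 chaperonin genes in DESeq2, 4 with the offsets and 5 without both libraries. The 24 endoplasmic reticulum genes had 19 above 0 and a median of 0.11, with 11 at an unadjusted p under 0.05 and 9 without overlap upward, again against 14.1%. Past the threshold were 3 in DESeq2, 9 with the offsets and 9 without both libraries. The 7 BAG and other nucleotide exchange factor genes had 3 above 0 and a median of −0.08, with none at an unadjusted p under 0.05. Without overlap were 1 upward and 1 downward. Past the threshold were none in DESeq2, 1 with the offsets (higher) and 1 without both libraries (lower). The shares of all genes past the threshold were 11.0%, 18.9% and 26.2% in these 3 fits. Over all genes 24.2% had an unadjusted p under 0.05 and the median was −0.0026.

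The endoplasmic reticulum list sets Hspa5 beside the genes of the unfolded protein response. Hsp90b1, the HSP90 of that compartment, had a log2 fold change of 0.21 (adjusted p = 0.185), Herpud1, a degradation factor, 0.22 (0.0919), and the sensor Atf6 0.13 (0.202), none past the threshold. Those of Atf4, a transcription factor of the integrated stress response, and its target Ddit3 were 0.02 (0.895) and −0.30 (0.139), and that of the sensor Ern1 was −0.10 (0.387, all from edgeR). These genes were picked after their values were seen and do not span the list. Of the 24, 19 lay above 0, and the log2 fold changes ran from −0.30 to 0.66 with a median of 0.11. Hspa5 was past the threshold in the fit of all 6 libraries and the other 24 were not. Of these 24, 9 were past it with the offsets (all higher) and 9 without both libraries that stand apart (8 higher), against 18.9% and 26.2% of all genes.

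**Figure D5:**
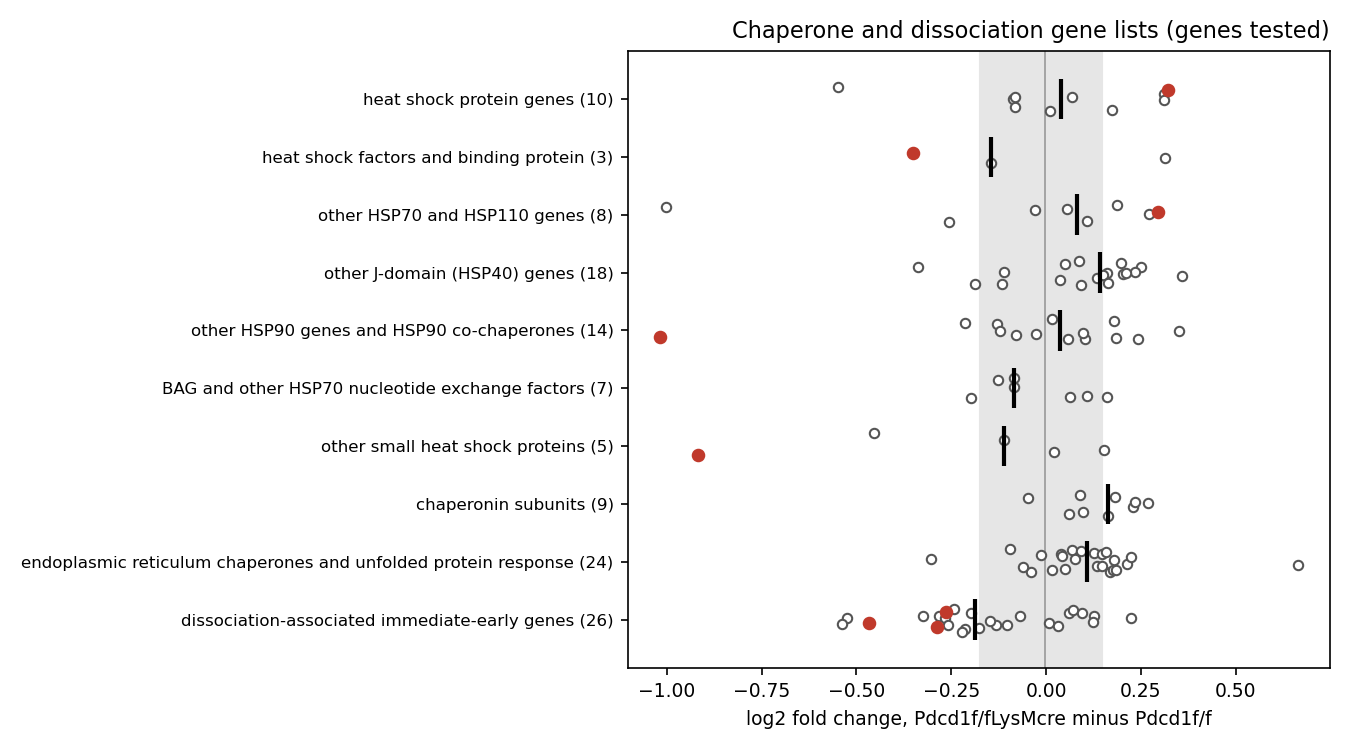
Log2 fold change, Pdcd1f/fLysMcre minus Pdcd1f/f, of each gene tested in the 10 lists, with the number tested in parentheses. Red points are past an adjusted p of 0.05 in edgeR, black bars are list medians, the grey band is the interquartile range and the grey line the median of all genes tested; the medians run from −0.19 for the dissociation genes to 0.16 for the chaperonin subunits.

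The immediate-early genes that enzymatic dissociation is known to induce were measured at high levels in both genotypes. Of 26 tested, 3 were past the threshold and all 3 were lower in Pdcd1f/fLysMcre TAMs, against 3.01% of all genes lower. Jun, a subunit of AP-1, had 22311, 25227 and 27488 normalized counts in the control libraries against 17789.5, 16434 and 19937 in the Cre libraries, and fell by 0.47 on the log2 scale (SE 0.09, adjusted p = 0.0167 from edgeR). Atf3, a stress-induced repressor, fell by 0.29 (adjusted p = 0.0327) and Btg2, an antiproliferative gene, by 0.26 (adjusted p = 0.0391, both from edgeR). The log2 fold change of Fos, the partner of Jun, was −0.28 (adjusted p = 0.0508 from edgeR).

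The median of this list was −0.19, with 18 log2 fold changes below 0, and every Cre library lay lower for 9 genes and higher for 2, against 13.1% and 14.1% of all genes tested. The count depended on the libraries, being 16 without Pdcd1f/f replicate 1, where 21.6% of all genes were past the threshold, and 0 in 4 of the other 5 leave-one-out fits, where 222 to 370 of all genes were. With the offsets, 7 genes were past the threshold lower and 2 higher, and the median was −0.05. In that fit 1099 of all 14469 genes were past it lower and 1642 higher, and their median was 0.02. Whether the lower immediate-early transcripts have a part in the values of the heat shock protein genes was not tested.

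The genes whose profiles over the 6 libraries were nearest to those of 2 members, among 10593 other genes with a mean of at least 100 normalized counts, were found by the root mean square difference of mean-centred log2 values. Nearest to Hspa1a were Mapk14, Litaf, S100a4, B4galt1 and Atxn1, with differences of 0.011 to 0.019, beside a root mean square of 0.057 for the Hspa1a profile itself. Nearest to Hspa8 were Slc30a5, Wdr3, Psmd11, M6pr and Ccdc6, with differences of 0.0099 to 0.017, beside 0.092 for Hspa8.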

How the data were processed

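The authors trimmed adapters with Cutadapt (2.5), aligned paired-end reads to GRCm38 with STAR (2.7.3a) and counted them per Ensembl gene with featureCounts (Subread 1.6.2). They deposited raw counts and a normalized signal table, whose values equal the counts divided by 1 DESeq2 (1.24.0) size factor per library; these are the normalized counts given here. The strand setting is not given in the sources used here.

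Genotypes came from the labels. Raw counts were tested with edgeR (4.0.16, R 4.3.3): filterByExpr (minimum count 10, minimum total 15), TMM, robust glmQLFit, two-sided glmQLFTest, and Benjamini-Hochberg adjustment over 14469 genes at 0.05. Alternatives used DESeq2 (1.42.0), limma (3.58.1, pseudocount 1), other scalings and filters, a block, loess offsets on GC content and length (span 0.5), and fewer libraries. The scripts were tested on simulated data. Annotation was GENCODE on GRCm38.

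The genes and lists were chosen with earlier results of these data known. Named genes were the 10 members, Pdcd1, Lyz2, Lyz1, Hsf1, Hsf2, Hspe1 and up to 5 genes past the threshold per list; others named (Hspa4, Fos, Csf3r, S100a8, Pecam1, Col1a2 and the endoplasmic reticulum genes) were picked after their values were seen. A marker list that holds an item withheld here is not reported.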

Additional observations from a re-analysis of the deposited data

How the results depend on the processing

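With 3 libraries against 3 the common biological coefficient of variation was 8.92%, and the calls moved with the processing while directions did so rarely. The calls over all genes (786) were 1951 with all genes of at least 1 count, 1598 with DESeq2, 2741 with GC and length offsets and 3757 without both libraries that stand apart. Under these 4 settings in turn, the heat shock protein genes past the threshold (1) were 3, 4, 5 and 4, the other HSP70 genes (1) 2, 2, 2 and 3, the J-domain genes (0) 3, 2, 8 and 8, the other HSP90 genes (1) 3, 2, 3 and 7, the chaperonin subunits (0) 3, 3, 4 and 5, the endoplasmic reticulum genes (0) 3, 3, 9 and 9, and the dissociation genes (3) 14, 7, 9 and 17. The heat shock factors (1) were 2 with all genes and without both libraries. The exchange factors (0) were 1 with the offsets, which was higher, and 1 without both libraries, which was lower.

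Whether the replicate numbers pair the libraries is not known. The correlations of same-numbered libraries were −0.01, −0.09 and 0.20, and the highest, 0.22, was between Pdcd1f/f replicate 1 and Pdcd1f/fLysMcre replicate 2. Since deviations within a genotype balance, these correlations cannot exclude a pairing. With the replicate number as a block, 1027 genes were called, with 2 heat shock protein genes, 1 J-domain gene, 2 other HSP90 genes and 7 dissociation genes. The offsets with the block gave 2861 calls, with 5 heat shock protein, 2 other HSP70, 8 J-domain, 3 other HSP90, 1 exchange factor, 4 chaperonin, 11 endoplasmic reticulum and 11 dissociation genes.

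Leaving out each library in turn gave 222 to 3181 calls, the highest without Pdcd1f/f replicate 1. The ranges were 0 to 5 for the heat shock protein genes, 0 to 2 for the heat shock factors, 0 to 3 for the other HSP70 genes, 0 to 8 for the J-domain genes, 1 to 6 for the other HSP90 genes, 0 to 1 for the exchange factors and for the small heat shock proteins, 0 to 5 for the chaperonin subunits, 0 to 6 for the endoplasmic reticulum genes and 0 to 16 for the dissociation genes. Among the heat shock protein genes and the genes named by rule, the log2 fold changes that changed sign, none past the threshold, were those of Hspa1a with the offsets (0.084) and the offsets with the block (0.082), of Hspa1b with library size alone (−0.0065) and without both libraries that stand apart (−0.042), and, in the fits that left out a library, of Hspa1b (−0.043 to 0.046), Pdcd1 (−0.58 to 0.015) and Hspe1 (−0.14 to 0.052). The cause of these moves was not tested. The sum of Hspa1a and Hspa1b was chosen after seeing the data and left 1 heat shock protein gene past the threshold.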
